A study of Homo sapiens with 6 samples.

Results

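The WNT pathway genes described here are 45 of the 35974 genes in a table from SU-DHL-8 cells, a human cell line established from a diffuse large B-cell lymphoma. They were selected by gene name and comprise 15 WNT ligands, 9 Frizzled receptors, the 2 co-receptors LRP5 and LRP6, the 2 receptor ubiquitin ligases RNF43 and ZNRF3, 9 secreted proteins of the SFRP, DKK and WIF families, 4 genes of beta-catenin and its destruction complex, and the 4 TCF/LEF transcription factors. Genes of these families without a row under those names were not analysed here. Poly(A) RNA was sequenced from 6 libraries: 3 of cells given the solvent DMSO and 3 of cells given GSK3685032, which inhibits the maintenance DNA methyltransferase DNMT1. All 6 share the line, the lymph node origin and, per their labels, a wild-type DNMT1 gene. Dose and time were not given in the sources used here, and for inhibitor replicates 2 and 3 the compound is labelled GSK3685033 and GSK3685034, respectively. Separate cultures are not stated for the replicates, so each p-value below reflects the spread of these 6 libraries alone, part or all of which may be technical.

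WNT proteins are secreted lipid-modified ligands that bind a Frizzled receptor together with LRP5 or LRP6. Without a ligand, a destruction complex built on AXIN and APC marks beta-catenin for degradation. With a ligand, beta-catenin accumulates, enters the nucleus and acts as a coactivator on TCF/LEF factors, whose targets include the feedback inhibitors AXIN2, RNF43 and ZNRF3. In lymphocytes LEF1 and TCF7 are best known from T cells and from early B-cell development, and the genes of several secreted WNT antagonists are well-known sites of promoter methylation in tumours.

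Library totals ran from 53846028 to 75304441 estimated counts, where about 4 counts correspond to 1 read pair. DNMT1 RNA fell from 33.0 ± 0.690 to 12.7 ± 0.774 FPKM, a read level scaled by transcript length and library size (mean ± SD, n = 3 per group here and below). Its edgeR log2 change was -1.38 ± 0.055 SE (adjusted p = 5.38e-08). The labelled B-cell origin was checked against 8 marker genes, all present, whose summed level was 899 to 916 FPKM with DMSO and 822 to 888 with the inhibitor. The markers of T cells, a cell type in which LEF1 and TCF7 are normally high, summed to 0.0222 to 0.114 FPKM with DMSO and 0.407 to 0.877 with the inhibitor. That list has 8 genes, of which 5 had a row, and its CD3E and CD8A were at 0 in every DMSO library. Epithelial markers went from at most 0.0144 FPKM to 2.74 to 4.15, with KRT18 at 2.15 to 3.47, EPCAM at 0.384 to 0.499 and KRT8 at 0.176 to 0.252 in the inhibitor libraries, while CDH1 was at 0 in 5 of 6 libraries. NK markers summed to 0.273 to 0.419 and 1.28 to 2.39 FPKM, and myeloid, fibroblast and endothelial markers to at most 1.01 in any library. The part of such cells in the results below was not tested.

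The inhibitor libraries held RNA of more WNT pathway genes than the DMSO libraries, and of more genes over the whole table. Between 20 and 25 of the 45 genes had a value above 0 in a DMSO library and between 37 and 41 in an inhibitor library. Over all 35974 genes, 23469 to 24091 had one in a DMSO library and 28431 to 28879 in an inhibitor library. In all, 17 of the 45 genes were at 0 in every DMSO library (22.0% of all genes in the table were; 8.70% of the genes tested), and WIF1 and DKK4 were at 0 in every inhibitor library. Levels were mostly low: 6 members reached 1 FPKM in each DMSO library and 8 to 10 did so with the inhibitor. Over all genes 11151 to 11251 did so with DMSO and 12193 to 12379 with the inhibitor. In bulk RNA, fewer cells of a type and less RNA per cell cannot be told apart, so a low level may stand for few cells or for little RNA in each.

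Of the 45 genes, 32 passed the filter on low counts and were tested. By edgeR's quasi-likelihood test at an adjusted p of 0.05, 22 of them were higher with the inhibitor and 3 lower, where 38.1% of the 20783 genes tested were higher and 27.3% lower, or 65.4% in either direction. With upper-quartile scaling, which shifted the log2 change of the median gene by 0.17, 23 members were higher and 0 lower. The split of called members was then 100% higher, against 88.0% with the main scaling, and over all called genes it was 68.2% against 58.3%. Of the 22 higher members, 9 had no count in any DMSO library and could pass the filter only through their inhibitor counts, so their direction was fixed in advance. Among the 23 tested members with a DMSO count, 13 were higher and 3 lower. Over all tested genes with a DMSO count the shares were 32.2% and 29.9%. Of the 13, SFRP5, WNT7B, WNT10B, RNF43, ZNRF3, AXIN2 and TCF7L1 had 4 to 24 DMSO counts and needed their inhibitor libraries to pass the filter. Both the split and the median of these 23 were thus partly set by the filter. The median log2 change of the 23 was 0.92. It was 2.34 over all 32 tested members with those at 0 set to a lower bound. Over all genes tested, those at 0 with DMSO included, it was 0.14. A median over only the tested genes with a DMSO count was not taken. The groups of libraries did not overlap in 31 of the 45 genes, 27 higher and 4 lower, where 28.7% and 18.6% of all genes did not.

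**Figure D1:**
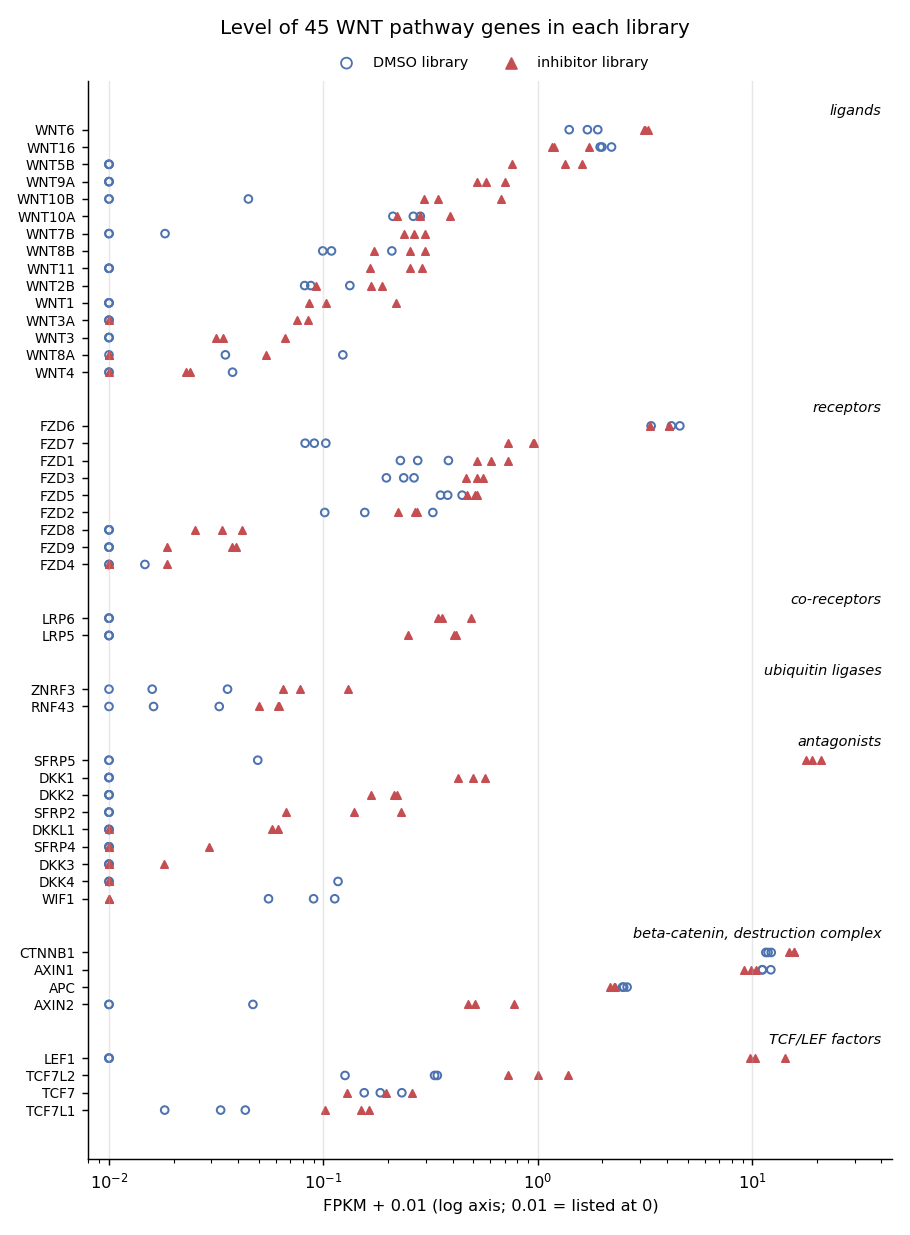
FPKM of the 45 genes in each library on a log axis, with 0.01 added so that a gene at 0 sits at the left edge. Open circles are the 3 DMSO libraries and triangles the 3 inhibitor libraries, and genes are grouped by role and ordered by their mean with the inhibitor. SFRP5 and LEF1 stand at the left edge or near it with DMSO and above 9 FPKM in every inhibitor library, while CTNNB1, AXIN1, APC and FZD6 are within a narrow range in all 6.

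Promoter sequence from RefSeq (GRCh38.p14) was available for 32 of the 45 genes. It is shown because DNMT1 copies methylation at CpG dinucleotides, which are printed in capitals in the 250 bases before the annotated start of 6 genes: SFRP5 and LEF1, which reached the highest levels of the genes at or near 0 with DMSO; WNT9A, a ligand at 0 with DMSO; the ligands WNT6 and WNT16, which were called in opposite directions; and the antagonist WIF1, which was at 0 with the inhibitor. All are written 5′ to 3′ on the gene's strand.
SFRP5 (chr10:97772000-97772249, minus strand): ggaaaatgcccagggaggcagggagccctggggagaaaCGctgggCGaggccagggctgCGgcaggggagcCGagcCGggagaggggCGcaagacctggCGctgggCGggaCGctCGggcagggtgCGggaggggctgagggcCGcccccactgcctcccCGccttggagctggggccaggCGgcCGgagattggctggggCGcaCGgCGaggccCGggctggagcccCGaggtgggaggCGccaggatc
LEF1 (chr4:108166302-108166551, minus strand): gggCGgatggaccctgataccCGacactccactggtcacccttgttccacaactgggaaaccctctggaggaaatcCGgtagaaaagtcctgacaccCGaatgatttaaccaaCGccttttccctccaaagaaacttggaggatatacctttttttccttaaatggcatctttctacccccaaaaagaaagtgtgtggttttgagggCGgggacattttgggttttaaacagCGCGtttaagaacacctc
WNT9A (chr1:227947933-227948182, minus strand): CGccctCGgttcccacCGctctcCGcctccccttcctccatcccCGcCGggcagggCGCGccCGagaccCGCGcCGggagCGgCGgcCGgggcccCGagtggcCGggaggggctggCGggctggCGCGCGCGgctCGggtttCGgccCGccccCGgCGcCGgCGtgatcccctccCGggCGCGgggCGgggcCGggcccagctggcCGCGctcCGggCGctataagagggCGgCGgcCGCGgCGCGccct
WNT6 (chr2:218859555-218859804, plus strand): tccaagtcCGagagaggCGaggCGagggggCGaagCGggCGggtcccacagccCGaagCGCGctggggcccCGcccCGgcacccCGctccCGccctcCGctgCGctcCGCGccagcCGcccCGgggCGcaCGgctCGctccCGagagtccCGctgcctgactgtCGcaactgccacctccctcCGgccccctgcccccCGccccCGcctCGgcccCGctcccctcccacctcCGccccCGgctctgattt
WNT16 (chr7:121328750-121328999, plus strand): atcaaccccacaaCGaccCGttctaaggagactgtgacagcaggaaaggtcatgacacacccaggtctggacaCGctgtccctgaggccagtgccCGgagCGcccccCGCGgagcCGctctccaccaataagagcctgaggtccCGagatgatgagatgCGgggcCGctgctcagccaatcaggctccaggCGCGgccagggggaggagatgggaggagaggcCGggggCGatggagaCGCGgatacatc
WIF1 (chr12:65121306-65121555, minus strand): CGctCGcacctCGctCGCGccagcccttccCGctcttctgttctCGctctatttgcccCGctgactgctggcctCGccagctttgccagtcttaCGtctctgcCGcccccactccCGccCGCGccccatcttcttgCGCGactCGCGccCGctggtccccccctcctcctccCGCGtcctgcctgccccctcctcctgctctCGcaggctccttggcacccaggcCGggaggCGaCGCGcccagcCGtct
These stretches held 21 CpGs in SFRP5, 8 in LEF1, 44 in WNT9A, 32 in WNT6, 17 in WNT16 and 27 in WIF1. RefSeq and the deposited table give the same start for SFRP5, WNT9A, WNT6 and WIF1, whereas they differ by 2655 bases for LEF1 and 3633 for WNT16, and by 87165 for WNT5B, which is described next. Gene totals do not show which start was used.

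Over the window of 300 bases that runs 50 bases past the start, the median CpG number was the same in genes at 0 with DMSO and in the others. The 13 members with a window that were at 0 in every DMSO library had a median of 28 CpGs (range 9 to 53), and the 19 with a DMSO count also had a median of 28 (range 4 to 47). Each member entered with its first listed window; where there were more, the number could differ, as in WNT2B (18 and 43) and TCF7 (25 and 3). Over all 35116 windows of the reference set, in which a gene can have several, the median was 14. Windows with at least 20 CpGs made up 71.9% of the members' and 41.2% of all. LEF1, with 9 CpGs, and WNT5B, with 10, rose from 0 to levels above those of LRP5 and WNT9A, with 52 and 53. For LEF1 and WNT5B the window lies away from the deposited start, so its CpG number may not be that of the start in use. The motif CTTTGAT, a core sequence bound by TCF/LEF factors, was searched on both strands and lay in 0 of the 32 member windows and in 2.62% of all windows. These are descriptions of the reference sequence, and methylation was not measured here.

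**Figure D2:**
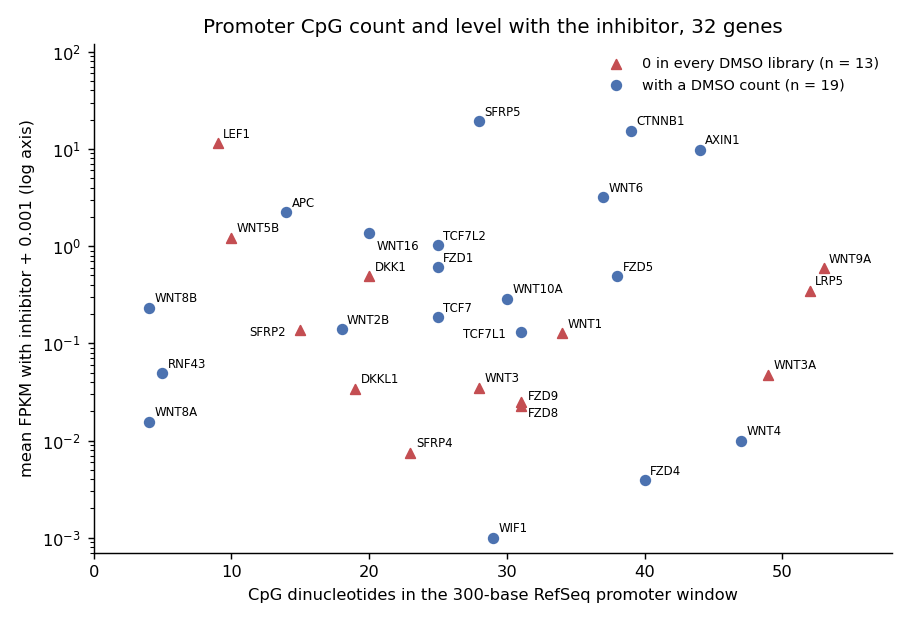
CpG dinucleotides in the first listed 300-base promoter window (x axis) and mean FPKM with the inhibitor plus 0.001 on a log axis (y axis) for the 32 genes with a RefSeq window. Triangles are the 13 genes at 0 in every DMSO library and circles the 19 with a DMSO count. The triangles run from 9 to 53 CpGs and the circles from 4 to 47.

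Among the ligands, WNT16 made up less of the summed level with the inhibitor, WNT6 about as much as with DMSO, and ligands at or near 0 with DMSO made up more. Of 15 ligands, 11 were tested, 7 were higher and 1 was lower, beside 38.1% and 27.3% of all genes tested. Of the 7, 4 had 0 DMSO counts and WNT7B and WNT10B had 4 and 7, so these passed the filter through the inhibitor libraries and their direction was fixed. The summed ligand level went from 4.23 ± 0.108 to 8.12 ± 0.132 FPKM. WNT16 held 46.3%, 45.5% and 53.0% of that sum in the DMSO libraries and 14.0%, 14.5% and 21.5% in the inhibitor libraries, whereas WNT6 held 33.6% to 43.5% and 37.6% to 40.7%.

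WNT6 (ENSG00000115596, GRCh38 chromosome 2, 218859805 to 218874233), a ligand known from epithelial development, measured 1.69, 1.89 and 1.39 FPKM with DMSO and 3.11, 3.13 and 3.25 with the inhibitor. Every inhibitor library lay above every DMSO library, and the rise was 0.92 on the log2 scale (± 0.180 SE in edgeR, adjusted p = 0.00129). WNT10A lies 6618 bases downstream on the same strand and measured 0.252, 0.273 and 0.201 FPKM with DMSO and 0.210, 0.273 and 0.379 with the inhibitor. These ranges overlapped and WNT10A was not called (edgeR log2 change 0.23 ± 0.329 SE, adjusted p = 0.562).

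WNT16 (ENSG00000002745, chromosome 7, 121325367 to 121341104), a ligand with known roles in bone and in blood stem cell formation, measured 1.94, 1.98 and 2.19 FPKM with DMSO. With the inhibitor it measured 1.15, 1.17 and 1.72. The groups did not overlap, but inhibitor replicate 3 lay closer to the DMSO libraries than to the other two. WNT16 fell by 0.61 on the log2 scale (± 0.188 SE in edgeR, adjusted p = 0.0172). That call ended with upper-quartile scaling (adjusted p = 0.0701) and without DMSO replicate 3 (0.0548), inhibitor replicate 1 (0.0623) or inhibitor replicate 2 (0.0563).

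WNT5B (ENSG00000111186, chromosome 12, 1529891 to 1647212), a ligand mostly linked to beta-catenin-independent signalling, had no count in any DMSO library. It measured 1.60, 1.33 and 0.746 FPKM with the inhibitor, at least 93.3-fold higher against a floor of 12 counts, or 3 read pairs, over the DMSO group (edgeR adjusted p = 5.18e-06). FBXL14 overlaps it by 28589 bases on the opposite strand and was at 17.1 FPKM with DMSO, where WNT5B had no count. WNT9A (chromosome 1, 227918656 to 227947932) likewise went from 0 to 0.509, 0.689 and 0.566 FPKM, a rise of at least 41.8-fold (adjusted p = 3.60e-06 in edgeR). Its neighbour WNT3A, 59065 bases away on the other strand, had 26 counts over the inhibitor group, was at 0 in inhibitor replicate 2 and did not pass the filter.

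WNT1 and WNT10B, both activators of beta-catenin signalling, lie 6586 bases apart on chromosome 12 with opposite strands, and both rose from levels at or near 0. WNT1 measured 0.0930, 0.207 and 0.0756 FPKM with the inhibitor from 0, at least 5.45-fold (edgeR adjusted p = 0.000955). WNT10B had 7 counts in DMSO replicate 3 and 0 in the others, and reached 0.665, 0.284 and 0.333 FPKM, a 34.4-fold ratio (95% counting interval 7.99 to 257, edgeR adjusted p = 0.000897). Inhibitor replicate 1 was the highest for WNT10B but not for WNT1.

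WNT11, known for its part in convergent extension movements, reached 0.242, 0.277 and 0.155 FPKM from 0, at least 9.73-fold (edgeR adjusted p = 0.000178). WNT7B, a ligand with roles in lung, kidney and brain vessels, had 4 DMSO counts, all in DMSO replicate 2, and 0.227, 0.256 and 0.287 FPKM with the inhibitor (ratio 69.8, 95% counting interval 12.1 to 2813, edgeR adjusted p = 6.22e-05). The counting intervals are exact binomial ones on counts divided by 4 and cover counting error only. WNT2B and WNT8B were not called. Their mean levels were 0.0906 and 0.139 FPKM for WNT2B and 0.129 and 0.231 for WNT8B, DMSO first. WNT3 had 28 counts with the inhibitor and 0 with DMSO, WNT4 had 8 in each group, and WNT8A had 19 with DMSO and 6 with the inhibitor; none of these passed the filter. Without the filter WNT3 was called higher (edgeR adjusted p = 0.0159).

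**Figure D3:**
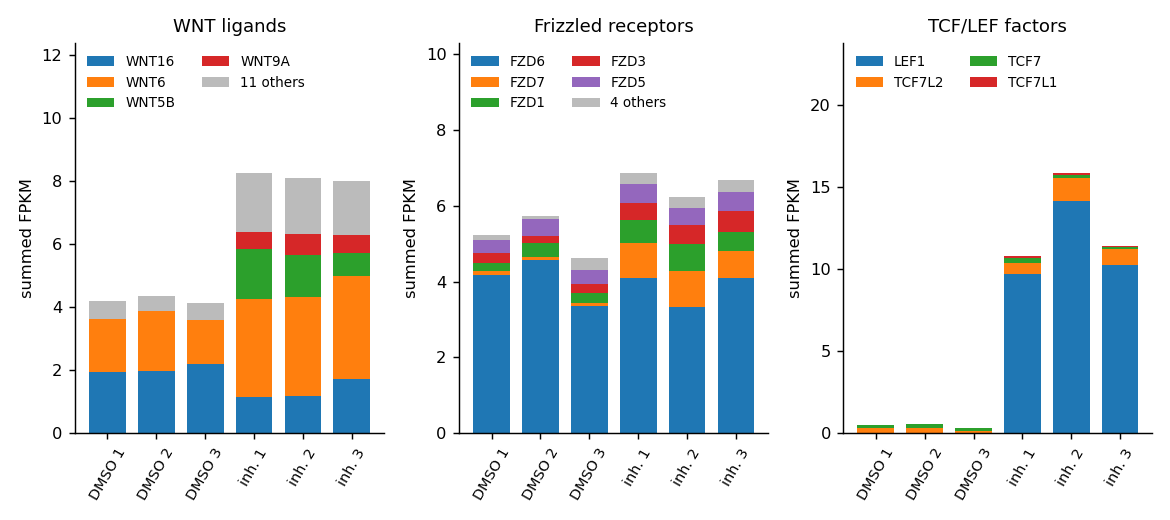
Summed FPKM of the ligands, the Frizzled receptors and the TCF/LEF factors in each library, as bars stacked by gene. WNT16 and WNT6 make up most of the ligand bar with DMSO, FZD6 is the largest part of the receptor bar in all 6 libraries, and LEF1 makes up nearly all of the TCF/LEF bar with the inhibitor and none of it with DMSO.

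Among the receptors, FZD6 was the most abundant Frizzled in both groups and 3 less abundant ones rose. Of 9 Frizzled genes, 6 were tested, 3 were higher and 0 lower, beside 38.1% and 27.3% of all genes tested. The summed level was 5.20 ± 0.563 FPKM with DMSO and 6.59 ± 0.334 with the inhibitor. FZD6, which is known for planar cell polarity, measured 4.18, 4.58 and 3.36 FPKM with DMSO and 4.09, 3.32 and 4.10 with the inhibitor. The ranges overlapped and no change was detected (edgeR log2 change -0.08 ± 0.137 SE, adjusted p = 0.620); the sign of that value turned under several alternatives given below.

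FZD7 (ENSG00000155760, chromosome 2, 202033855 to 202038441), a receptor of stem and progenitor cells in several tissues, had the largest change. It measured 0.0926, 0.0721 and 0.0806 FPKM with DMSO and 0.934, 0.949 and 0.714 with the inhibitor, an edgeR log2 change of 3.37 ± 0.253 SE (adjusted p = 2.27e-06). Its share of the summed Frizzled level went from 1.26% to 1.77% up to 10.7% to 15.3%. FZD1 rose from 0.285 ± 0.0790 to 0.607 ± 0.103 FPKM (edgeR log2 change 1.08 ± 0.249 SE, adjusted p = 0.00361) and FZD3 from 0.223 ± 0.0342 to 0.502 ± 0.0471 (edgeR log2 change 1.17 ± 0.176 SE, adjusted p = 0.000252). FZD1, FZD2 and FZD7 are similar in sequence, so reads may be shared between them. FZD2 and FZD5 were not called, although no inhibitor library of FZD5 lay below a DMSO library (0.381 ± 0.0470 and 0.488 ± 0.0296 FPKM, edgeR adjusted p = 0.138). FZD5 was called with upper-quartile scaling (adjusted p = 0.0359) and FZD2 without DMSO replicate 3 (log2 change 1.02 in place of 0.40, adjusted p = 0.0490). FZD4, FZD8 and FZD9 had at most 18 counts in any group and were not tested; without the filter FZD8 was called higher (edgeR adjusted p = 0.0326).

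Both co-receptors were at 0 in every DMSO library. LRP6 (ENSG00000070018, chromosome 12, 12116025 to 12267044) measured 0.347, 0.476 and 0.331 FPKM with the inhibitor, at least 71.0-fold higher (edgeR adjusted p = 1.71e-06). LRP5 (ENSG00000162337, chromosome 11, 68312591 to 68449275) measured 0.237, 0.405 and 0.395 FPKM, at least 38.0-fold higher (edgeR adjusted p = 8.35e-06). A count of 0 over the DMSO group allows up to 3 read pairs there, which sets both bounds. BCL2L14, which overlaps LRP6 on the opposite strand over 95060 bases, averaged 0 FPKM with DMSO and 0.00400 with the inhibitor.

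RNF43 and ZNRF3, which remove Frizzled receptors from the cell surface, were at the limit of detection. Both needed their inhibitor libraries to pass the filter, so their direction was fixed. RNF43 had 12 counts over the DMSO group and 56 over the inhibitor group, or about 3 and 14 read pairs. Its call (ratio 5.45, 95% counting interval 1.52 to 29.6, edgeR adjusted p = 0.0459) ended with DESeq2 (adjusted p = 0.0502), without the filter on low counts (0.117) and without any 1 of 5 of the libraries (0.0926 to 0.147). The RNF43 span also holds TSPOAP1-AS1 on the opposite strand, at 3.71 and 4.60 FPKM, and whether counting used strand was not given in the sources used here. On the same strand ENSG00000285897 overlaps RNF43 over 63920 bases, at 0.214 FPKM with DMSO and 0.363 with the inhibitor. Strand cannot separate reads of these 2 genes. ZNRF3 measured 0.0257, 0.00590 and 0 FPKM with DMSO and 0.0547, 0.121 and 0.0677 with the inhibitor (edgeR log2 change 2.82 ± 0.900 SE, adjusted p = 0.0197). It was not called without DMSO replicate 2 (adjusted p = 0.0619) or inhibitor replicate 2 (0.0860), and the log2 change was 4.34 without DMSO replicate 1 and 2.24 without DMSO replicate 3. The fitted log2 change of RNF43 was 2.33 with all libraries, 3.79 without DMSO replicate 1 and 1.71 without DMSO replicate 2.

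The secreted antagonists were dominated by SFRP5, a protein that binds WNT ligands outside the cell. Of 9 genes, 3 were tested and called higher, but DKK1 and DKK2 had 0 DMSO counts and SFRP5 had 6, so all 3 passed the filter through the inhibitor libraries and could only be higher. SFRP5 (ENSG00000120057, chromosome 10, 97766751 to 97771999) measured 0, 0.0394 and 0 FPKM with DMSO, which is 6 counts in all and none without DMSO replicate 2, and 19.0, 17.7 and 20.9 with the inhibitor. The 3 inhibitor libraries lay close together, and the ratio was 1280 (95% counting interval 265 to 7933, edgeR adjusted p = 2.42e-08). With the inhibitor SFRP5 was the highest of the 45 genes, above 94.6% of all genes in the table by mean FPKM, and made up 95.5% to 96.0% of the summed level of the secreted antagonists.

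SFRP5 and LEF1 were the members that went from under 0.1 FPKM in every DMSO library to at least 1 in every inhibitor library, as did 1.45% of all genes. The other SFRP genes stayed low. SFRP2, another soluble receptor decoy, had 0 counts with DMSO and 0.0570, 0.129 and 0.220 FPKM with the inhibitor and did not pass the filter; without the filter it was called higher (edgeR adjusted p = 0.00482). SFRP4 had 4 counts in 1 inhibitor library.

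The Dickkopf proteins DKK1 and DKK2 bind LRP5 and LRP6. DKK1 (chromosome 10, 52314281 to 52317657), itself a WNT target gene in many tissues, went from 0 to 0.556, 0.413 and 0.491 FPKM, a rise of at least 19.5-fold (adjusted p = 2.21e-05 in edgeR). DKK2, which lies 763738 bases from LEF1 on chromosome 4, went from 0 to 0.157, 0.203 and 0.211 FPKM, a rise of at least 14.8-fold (adjusted p = 4.49e-05 in edgeR). DKK3, DKK4 and DKKL1, a dickkopf-like gene, had at most 8 counts in a group.

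WIF1, a secreted WNT-binding protein, had the opposite pattern. It was present at 0.0800, 0.103 and 0.0455 FPKM in the DMSO libraries and at 0 in all 3 inhibitor libraries. The 36 DMSO counts correspond to about 9 read pairs, which put the inhibitor level at least 2.57-fold lower. WIF1 did not pass the filter, and without that filter it was called (edgeR adjusted p = 0.0116).

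The genes of beta-catenin and its destruction complex were expressed in all libraries, except AXIN2, and changed little. CTNNB1 (ENSG00000168036, chromosome 3, 41194741 to 41240443), which encodes beta-catenin, measured 12.2, 11.5 and 11.8 FPKM with DMSO and 14.8, 15.5 and 15.7 with the inhibitor. The groups were well apart and the rise was 0.36 on the log2 scale (± 0.0402 SE in edgeR, adjusted p = 3.26e-05).

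The scaffold AXIN1 measured 11.1, 11.1 and 12.2 FPKM with DMSO and 10.4, 9.09 and 9.81 with the inhibitor (edgeR log2 change -0.24 ± 0.0657 SE, adjusted p = 0.00973). APC, the tumour suppressor of colorectal cancer, measured 2.50, 2.47 and 2.60 FPKM with DMSO and 2.17, 2.28 and 2.25 with the inhibitor (edgeR log2 change -0.18 ± 0.0582 SE, adjusted p = 0.0196). Both falls were small, and their calls ended under several alternatives. With upper-quartile scaling the changes were -0.07 (adjusted p = 0.386) for AXIN1 and -0.01 (adjusted p = 0.885) for APC, and with only genes of at least 1 FPKM tested they were -0.14 (adjusted p = 0.0644) and -0.09 (adjusted p = 0.218). With inhibitor replicate 1 alone neither was called (adjusted p = 0.210 for AXIN1 and 0.0930 for APC). APC also lost its call without DMSO replicate 3 (adjusted p = 0.0797) and in the limma fits on log2 FPKM with a pseudocount of 0.1, 0.5 or 1 (adjusted p = 0.0860 to 0.107).

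AXIN2 (ENSG00000168646, chromosome 17, 65528563 to 65561648), the paralog of AXIN1 and a feedback target of beta-catenin, measured 0, 0.0369 and 0 FPKM with DMSO. With the inhibitor it measured 0.464, 0.765 and 0.501. All 16 of its DMSO counts came from DMSO replicate 2, without which its DMSO level was 0, and every inhibitor library lay above that one. The edgeR log2 change was 5.34 ± 0.846 SE (adjusted p = 0.000347). AXIN2 needed its inhibitor libraries to pass the filter, so its direction was fixed.

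**Figure D4:**
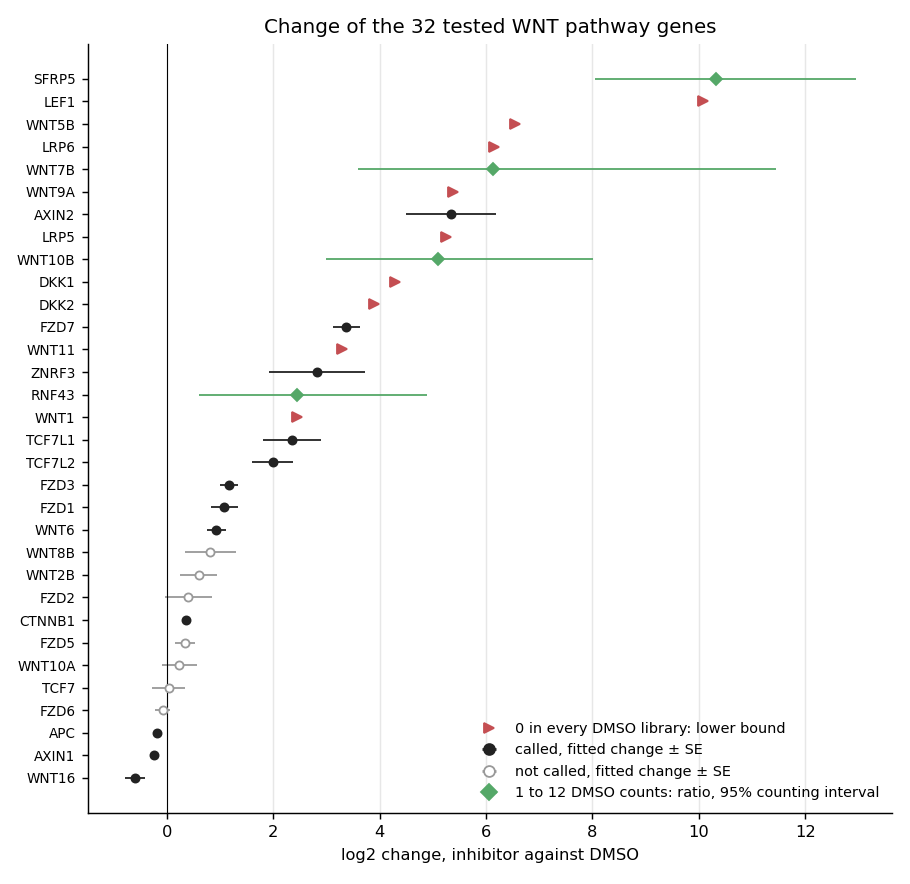
Log2 change with the inhibitor for the 32 tested genes, in order of size. Circles are fitted changes with their SE, filled where the adjusted p was under 0.05; diamonds are ratios for genes with 1 to 12 DMSO counts with a 95% counting interval; triangles are lower bounds for genes with 0 DMSO counts. The fitted changes of CTNNB1, AXIN1 and APC lie close to 0 with narrow errors, whereas those of low genes have wide ones.

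The TCF/LEF factors showed a change in which factor predominated. LEF1 (ENSG00000138795, chromosome 4, 108047545 to 108168956) had 0 counts in every DMSO library and measured 9.69, 14.2 and 10.2 FPKM with the inhibitor, at least 1083-fold higher (edgeR adjusted p = 7.45e-08). With the inhibitor, SFRP5 and CTNNB1 were the only members above it, and it lay above 90.7% of all genes in the table. The 5 T-cell markers with a row summed to 0.407 to 0.877 FPKM in the same libraries, and the part of such cells was not tested. LEF1 made up 89.2% to 89.8% of the summed TCF/LEF level there, and the sum went from 0.457 ± 0.123 to 12.7 ± 2.77 FPKM. The antisense gene LEF1-AS1, which overlaps LEF1 by 1432 bases, averaged 0 FPKM with DMSO and 0.396 with the inhibitor. The gene total does not separate full-length LEF1 from the shorter form that lacks the beta-catenin binding part.

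TCF7L2 and TCF7L1 rose from lower levels. TCF7L2, the main TCF factor of the intestinal epithelium, measured 0.330, 0.320 and 0.116 FPKM with DMSO and 0.716, 1.37 and 0.989 with the inhibitor (edgeR log2 change 1.98 ± 0.380 SE, adjusted p = 0.00116). TCF7L1, often a repressor in stem cells, measured 0.00819, 0.0232 and 0.0332 FPKM with DMSO and 0.140, 0.153 and 0.0915 with the inhibitor (edgeR log2 change 2.35 ± 0.549 SE, adjusted p = 0.00385). With 24 DMSO counts in all, TCF7L1 needed its inhibitor libraries to pass the filter, so its direction was fixed. For both genes every inhibitor library was above every DMSO library. Neither was called when inhibitor replicate 1, the one library whose treatment label reads GSK3685032, was set alone against DMSO (adjusted p = 0.0582 and 0.0634).

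TCF7, the T-cell factor, did not move with LEF1. It measured 0.145, 0.222 and 0.174 FPKM with DMSO and 0.250, 0.186 and 0.119 with the inhibitor. The DMSO range lay within the inhibitor range, with no change detected (edgeR log2 change 0.03 ± 0.315 SE, adjusted p = 0.939) and a sign that depended on the fit. SKP1 overlaps TCF7 on the opposite strand by 2931 bases at 9.20 and 13.5 FPKM.

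Other genes of the pathway were described from 5 lists that hold 115 genes. Of these, 104 had a row and 88 were tested, with 46 higher, 17 lower and a median log2 change of 0.25, beside 38.1% higher, 27.3% lower and a median of 0.14 over all genes tested. The counts of each list below are to be read against the same shares. Of the 88, 14 were at 0 in every DMSO library and could only be higher. LGR5, LRP4, RSPO4, DACT1, JUP and NKD1 had few DMSO counts and also needed their inhibitor libraries to pass the filter. With upper-quartile scaling 58 were higher and 8 lower, so that 87.9% of the called genes were higher, against 73.0% with the main scaling; over all called genes the same change of scaling moved 58.3% to 68.2%. The lists were drawn up with earlier results of these data known.

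Genes for WNT secretion and for signals at the cell surface were mostly higher: 12 of 13 tested, with 0 lower and 1 not called. Of the 13, 4 were at 0 in every DMSO library. LGR5, LRP4 and RSPO4, also among the 12, needed their inhibitor libraries to pass the filter, so the direction of these genes was fixed too. WLS, the carrier that brings WNT proteins to the cell surface, went from 0 to 0.722, 0.748 and 0.539 FPKM, a rise of at least 53.3-fold (adjusted p = 2.67e-06 in edgeR). NOTUM, a secreted enzyme that removes the lipid from WNT proteins and is itself a target gene, went from 0 to 0.650, 0.785 and 0.939 FPKM, a rise of at least 41.0-fold (adjusted p = 4.11e-06 in edgeR). LGR6, a receptor for R-spondins, rose from 0.278 ± 0.125 to 2.16 ± 0.396 FPKM (edgeR log2 change 2.95 ± 0.301 SE, adjusted p = 1.80e-05).

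Receptors and planar polarity genes outside the Frizzled family were higher in 8 of 14 and lower in 2. Of the 14, 4 were at 0 in every DMSO library and could only be higher. ROR1, a receptor for WNT5A-type ligands that is known from chronic lymphocytic leukaemia, rose from 0.177 ± 0.0106 to 1.54 ± 0.166 FPKM (edgeR log2 change 3.10 ± 0.165 SE, adjusted p = 2.64e-07). PTK7 and VANGL2, a pseudokinase co-receptor and a core polarity protein, went from 0 to 0.847 ± 0.0802 and 0.539 ± 0.0675 FPKM, at least 136-fold and 51.2-fold. The polarity cadherin CELSR2 fell from 4.34 ± 0.220 to 1.52 ± 0.202 FPKM (edgeR log2 change -1.52 ± 0.0955 SE, adjusted p = 7.29e-07). SCRIB, a polarity scaffold, measured 18.6 ± 0.633 and 16.4 ± 0.557 FPKM, and its call as lower ended with upper-quartile scaling (adjusted p = 0.754).

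Of the cytoplasmic machinery, 6 of 29 were higher, 6 lower and 17 not called, where 38.1% of all genes tested were higher and 27.3% lower. NKD2, at 0 in every DMSO library, could only be higher. JUP and DACT1 needed their inhibitor libraries to pass the filter, so their calls as higher were fixed in direction. JUP, or plakoglobin, a close relative of beta-catenin, rose from 0.0148 ± 0.0169 to 2.57 ± 0.669 FPKM (edgeR log2 change 7.22 ± 0.530 SE, adjusted p = 1.95e-06; 8.64 without DMSO replicate 2). NKD2, an inhibitor of Dishevelled, went from 0 to 0.604 ± 0.0996 FPKM, at least 31.7-fold, and FRAT1, a GSK3-binding protein, rose from 2.53 ± 0.384 to 4.41 ± 0.543 FPKM. CXXC5 fell from 4.10 ± 0.514 to 2.37 ± 0.278 FPKM, the casein kinase CSNK1G1 from 5.35 ± 0.0679 to 3.91 ± 0.330 and the ubiquitin ligase SIAH1 from 5.72 ± 0.186 to 4.87 ± 0.216; SIAH1 was not called with upper-quartile scaling (adjusted p = 0.339). The kinase GSK3B, named after its values were seen, measured 3.71 ± 0.111 and 3.53 ± 0.194 FPKM and was not called (edgeR adjusted p = 0.231).

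Among nuclear cofactors 12 of 22 were higher and 7 lower, beside 38.1% and 27.3% of all genes tested. Of the 22, 3 were at 0 in every DMSO library and could only be higher. Members of the Groucho family of TCF corepressors went both ways. TLE4 fell from 18.96 ± 0.0898 to 11.3 ± 0.345 FPKM (edgeR log2 change -0.75 ± 0.0443 SE, adjusted p = 4.90e-07), while TLE3 rose from 0.922 ± 0.127 to 2.75 ± 0.230 (edgeR log2 change 1.57 ± 0.112 SE, adjusted p = 1.61e-06). TLE6 measured 0.763 ± 0.0988 and 0.480 ± 0.101 FPKM and lost its call as lower without any 1 of 4 of the libraries. The corepressor CTBP2 rose from 0.370 ± 0.115 to 2.27 ± 0.583 FPKM and SOX7 from 0.220 ± 0.0794 to 0.812 ± 0.190. TBL1XR1, which works with beta-catenin on chromatin, fell to 20.5 ± 1.15 from 28.1 ± 1.34 FPKM. For CTBP2, SOX7 and TBL1XR1 the adjusted p in edgeR was 1.29e-05, 0.000641 and 3.90e-05.

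Textbook target genes of beta-catenin were higher in 10 of 13 tested and lower in 2, beside 38.1% and 27.3% of all genes tested. Of the 22 with a row, 10 had 0 counts in every DMSO library, as did 22.0% of all genes. Of these 10, 3 were tested and could only be higher. LGR5, called higher from 7 DMSO counts, also needed its inhibitor libraries to pass the filter. The intestinal factor CDX2 went from 0 to 1.21 ± 0.298 FPKM, a rise of at least 75.4-fold (adjusted p = 2.46e-06 in edgeR). The Notch ligand JAG1 rose from 0.0453 ± 0.0253 to 1.03 ± 0.0634 FPKM (edgeR log2 change 4.43 ± 0.332 SE, adjusted p = 2.25e-06). MYC and PTCH1, the hedgehog receptor, fell, MYC from 188 ± 3.70 to 111 ± 5.47 FPKM and PTCH1 from 1.67 ± 0.0480 to 0.972 ± 0.0223. Most genes on this list also answer to other pathways, and the list does not measure WNT signalling.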

How the data were processed

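The authors deposited 1 table with an estimated count and an FPKM value per gene and library, per the file headers. The tools listed in the submitters' processing notes, without a role for any, are HISAT2 2.2.1 and StringTie 2.1.6, beside cutadapt 1.9, edgeR and DESeq2. Although those notes name mouse mm10, 34105 of the 35974 gene IDs are in human GENCODE 29, where 99.78% overlap the GRCh38 coordinates, including all 45 WNT pathway genes. Coordinates are therefore read as GRCh38.

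Counts piled up at multiples of 4 (a mean of 1319.8 genes in a library at 4, 725.8 at 3 and 474.5 at 5), so 4 counts were taken as about 1 read pair. Counts were tested across the whole table with edgeR 4.0.16 (R 4.3.3; filterByExpr, TMM factors, quasi-likelihood test, Benjamini-Hochberg adjustment over 20783 genes, two-sided), with all 6 libraries and no covariate. A value of 0 throughout DMSO was replaced by 12 counts over the group to give a bound. Alternatives used DESeq2 1.42.0 and limma 3.58.1. No 2 libraries of a group held identical values. Libraries were grouped by title.

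Members and lists were chosen with earlier results of these data known. Any member may be named; from each list, up to 3 called genes per direction with the largest change, no overlap between groups and a mean of at least 0.5 FPKM in a group.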

Additional observations from a re-analysis of the deposited data

How the results depend on the processing

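Of the 25 members called, 18 kept their direction and call under those of the 17 alternatives that tested them. The exceptions were WNT16, AXIN1, APC, RNF43, ZNRF3, TCF7L1 and TCF7L2. Not every alternative tested each member. With counts divided by 4, 26 members were tested, with 17 higher and 3 lower. Over all 16200 genes tested in that fit, 6595 were higher and 5303 lower. With only genes of at least 1 FPKM in 3 libraries tested, which leaves fewer genes, 4 members were higher and 1 lower of 8, 28 other pathway genes were higher and 9 lower of 58, and 4826 of all 12395 genes tested were higher. With upper-quartile scaling edgeR called 0 members lower (1 at an unadjusted p under 0.05; DESeq2, run as a separate alternative with its own size factors, called 3) and 8 other pathway genes lower. With inhibitor replicate 1 alone, 1 member and 11 other pathway genes were lower. Leaving out 1 library gave 21 to 23 members higher and 2 to 4 lower, 44 to 49 other pathway genes higher and 15 to 17 lower, and 7481 to 8065 of all genes higher and 5263 to 5434 lower. Signs turned only for genes that were not called. FZD6 turned to 0.035 with inhibitor replicate 1 alone, 0.014 with genes of at least 1 FPKM and 0.089 with upper-quartile scaling, and ranged from -0.20 to 0.022 when 1 library was left out. TCF7 turned to -0.017 with the replicate block and ranged from -0.27 to 0.27 when 1 library was left out. With inhibitor replicate 1 alone WNT2B turned to -0.13 and WNT10A to -0.17. The cause of these changes was not tested.

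The replicate numbers in the titles were used as a block in 1 alternative. Deviations of same-numbered libraries from their group means correlated at 0.025, 0.0789 and -0.0904 over 10249 genes. Of the 3 DMSO libraries, 1 correlated best with its own number. With 3 libraries a group, these values cannot show whether the numbers pair the libraries. With the block, 21 members were higher and 3 lower, and RNF43 lost its call (adjusted p = 0.0793). Genes near 12 counts a group, such as RNF43, ZNRF3 and WIF1, are at the limit of this depth.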
